A study of Mus musculus with 20 samples.

Results

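The comparison described here is that of Hopx knockout with wild-type cells in MPP2, the type 2 multipotent progenitors of mouse bone marrow. Its members are 6 of the 20 RNA-seq libraries of the study, chosen by their labels: 3 Hopx knockout (KO) MPP2 libraries and 3 Hopx wild-type (WT) MPP2 libraries. The other 14 libraries, 7 of long-term haematopoietic stem cells (LT-HSC) and 7 of type 3 multipotent progenitors (MPP3), served to estimate the spread of each gene and to ask whether a difference was larger or smaller in MPP2. All animals were young mice of 8 weeks on a C57BL/6 background, and the cells were collected by flow cytometric sorting of bone marrow. How the Hopx allele was made, whether it is germ line or conditional, the gates of the sort, and whether a library holds 1 animal or a pool are stated in none of the sources used here. Since the labels name no animals, the p-values speak of the spread among these libraries, which may be technical. Nor do the labels say whether libraries of different populations came from the same animals. The fit treated all 20 libraries as independent.

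MPP2 are known as an early progenitor that leans toward megakaryocytes, the makers of platelets, and toward red cells. They are usually sorted as cells that carry Kit, Sca-1 (the product of Ly6a), CD150 (Slamf1) and CD48 and that lack Flt3. Hopx encodes the smallest homeodomain protein known, which does not bind DNA itself and works through partners, among them serum response factor (SRF), histone deacetylases and, in other tissues, SMAD proteins. SRF binds the CArG box, a short element in front of many genes of the actin cytoskeleton and of the immediate early response.

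The 250 bases before the first annotated start of the deleted gene and of each gene called between KO and WT MPP2 are printed here, 5′ to 3′ on the strand of the gene, from RefSeq on GRCm38.p6. Capitals mark a CArG box, searched for by that name on both strands.
Hopx, first start, chr5:77115124-77115373, minus strand: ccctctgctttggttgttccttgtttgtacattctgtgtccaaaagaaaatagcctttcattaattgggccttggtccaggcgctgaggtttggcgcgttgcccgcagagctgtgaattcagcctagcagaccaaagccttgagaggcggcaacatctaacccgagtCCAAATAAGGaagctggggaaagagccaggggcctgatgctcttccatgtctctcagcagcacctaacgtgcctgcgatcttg
Sva, chr6:42038144-42038393, plus strand: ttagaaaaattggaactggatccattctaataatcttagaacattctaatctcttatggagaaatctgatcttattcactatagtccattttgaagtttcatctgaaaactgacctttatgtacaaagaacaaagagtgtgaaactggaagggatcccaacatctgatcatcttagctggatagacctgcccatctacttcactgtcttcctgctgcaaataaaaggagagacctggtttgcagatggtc
Eps8l1, first start, chr7:4460447-4460696, plus strand: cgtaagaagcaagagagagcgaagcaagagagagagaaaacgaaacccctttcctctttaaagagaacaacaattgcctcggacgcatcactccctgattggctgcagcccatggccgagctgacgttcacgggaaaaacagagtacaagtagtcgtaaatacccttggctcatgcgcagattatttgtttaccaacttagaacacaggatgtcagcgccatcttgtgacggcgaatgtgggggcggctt
The window of the first Hopx start held a CArG box at position -83 from that start. The window of the second Hopx start, the Sva window and the windows of all 3 Eps8l1 starts held none. Of 32851 promoter windows of the same length, 482 (1.47%) held one. The letters AGATAA, a motif of factors of the red cell and platelet lineages, were in none of the windows printed on either strand and in 3281 (9.99%) of all windows. A match of letters is a description and not a binding site.

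The 6 MPP2 libraries held between 13035794 and 15189909 reads in genes. Values are normalized counts, that is, reads divided by the size factor of the library. The libraries were uneven beyond genotype. Of 17160 genes tested, 15.8%, 7.51% and 21.9% were at 0 in KO replicates 1 to 3 and 13.0%, 6.60% and 7.26% in WT replicates 1 to 3, so KO replicate 3 had the most undetected genes. By Xist and Y-linked transcripts KO replicates 1 and 3 were female and KO replicate 2 male, against a female WT replicate 3 and male WT replicates 1 and 2. The library numbers in the titles run from 101 to 106 for replicate 1 of either genotype and from 115 to 120 for replicate 2. KO replicate 3 is numbered 88 and WT replicate 3 is numbered 53, each with no MPP2 library of the other genotype near it.

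The sorting genes fitted the label in part. Slamf1 stood at 933, 590 and 446 normalized counts in KO replicates 1 to 3 and at 606, 407 and 512 in WT replicates 1 to 3. Kit, the receptor for stem cell factor, stood at 1656, 2222 and 3135 in KO and at 2707, 2374 and 3686 in WT, and Cd48 at 1643, 2750 and 3750 in KO and at 1626, 2003 and 7347 in WT. For these genes the genotypes overlapped. Ly6a was low in 5 libraries, at 107, 172 and 121 in KO and at 108 and 82.1 in WT replicates 1 and 2, and was 3451 in WT replicate 3. In LT-HSC and MPP3 libraries Ly6a ran from 949.5 to 3741. The highest values there, 3741 in WT LT-HSC replicate 3 and 3572 in WT MPP3 replicate 2, came from the libraries numbered 54 and 52.

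WT replicate 3 stood apart from the other MPP2 libraries also in Flt3 and in lymphoid genes. Flt3, a cytokine receptor of progenitors that lean to lymphoid and dendritic cells, was 268, 410 and 226 in KO, against 94.4, 138 and 4080 in WT. Ighm, the immunoglobulin heavy chain of B cells, was 0, 577 and 8.84 in KO and 145, 235 and 176990 in WT. The 18 B cell and plasma cell markers summed to between 1574 and 3890 in 5 libraries and to 418320 in WT replicate 3. The 18 early lymphoid markers summed to between 8182 and 11231 in the same 5 libraries and to 209008 in WT replicate 3. Ighm is a member of the early lymphoid list, so 176990 of that 209008 came from this gene alone. Pf4, a chemokine of platelets and megakaryocytes, was 55774, 46481 and 6536 in KO and 31814, 21478 and 1374 in WT. Replicate 3 was the lowest of its genotype in Pf4, with WT replicate 3 the lowest of all. In bulk RNA, fewer cells of a type and less RNA per cell cannot be told apart.

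**Figure D1:**
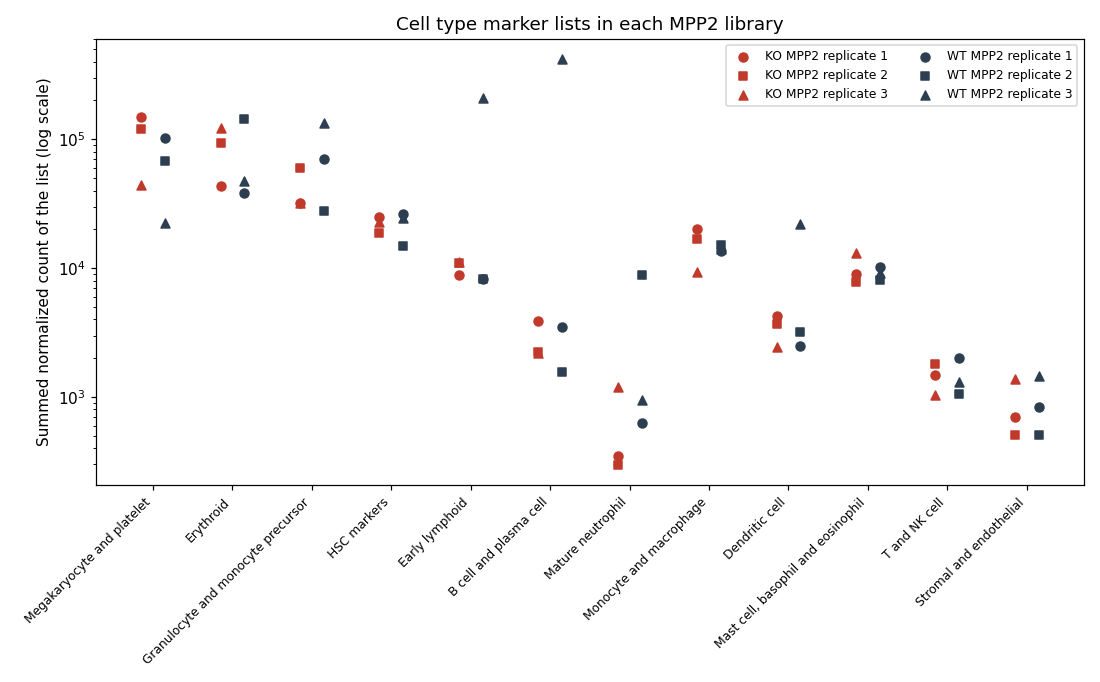
Summed normalized count of each list of cell type markers (log scale) in the 3 KO (red) and 3 WT (dark) MPP2 libraries, with a symbol for each replicate. WT replicate 3 lies above every other library for B cell and plasma cell markers (418320) and early lymphoid markers (209008, of which 176990 is Ighm). It lies lowest for megakaryocyte and platelet markers.

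Hopx itself had 0 reads in each of the 3 KO MPP2 libraries, against 61.2, 11.01 and 40.2 normalized counts in WT replicates 1 to 3. Every WT MPP2 library lay above every KO MPP2 library. The WT mean was 37.5 ± 25.2 (SD, n = 3), from 115 reads in all, which puts Hopx at least 39.8-fold lower in KO against a floor of 3 reads over the group. That floor covers counting error only. On the log2(value + 1) scale the difference was -4.97 (SE 1.15), and it did not pass the test across all genes (limma adjusted p = 0.257). It was -5.96 between the libraries numbered 101 to 106 and -3.59 between those numbered 115 to 120. Hopx (chromosome 5, 77086988 to 77115121, minus strand, GRCm38) overlaps Hopxos on the opposite strand. No source used here says whether strand was used in counting, and without it reads of the pair cannot be told apart.

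The genotype comparison was then run over all 17160 genes. The limma test called 2 genes at a Benjamini-Hochberg adjusted p under 0.05, 0.0117% of those tested, 1 higher and 1 lower in KO MPP2 (0.00583% each). Both calls sat at the threshold. Sva rose and Eps8l1 fell in KO MPP2.

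Sva encodes a protein secreted by the seminal vesicle and lies on chromosome 6 at 42038394 to 42042851 on the plus strand. Its value was 19.1, 119 and 93.3 in KO replicates 1 to 3 and 0 in all 3 WT MPP2 libraries. Every KO library had Sva reads and no WT MPP2 library had any. The KO mean was 77.1 ± 51.9 (SD, n = 3) from 249 reads, which is at least 75.7-fold higher than in WT against a floor of 3 reads over the group. The log2 difference was 5.93 (SE 0.90, limma adjusted p = 0.0499). The same was seen outside MPP2, in libraries that may come from the same animals as those of MPP2. In LT-HSC the KO mean was 107 ± 101 (n = 3) against 0 in WT (limma adjusted p = 0.0147). In MPP3 it was 74.6 ± 45.5 (n = 3) against a WT mean of 0.314 (n = 4), from 1 read in WT (limma adjusted p = 0.0468). The KO difference of MPP2 minus the mean of those in LT-HSC and MPP3 was -0.01 on the log2 scale (SE 1.08, limma unadjusted p = 0.99).

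Eps8l1 encodes a relative of EPS8, an adaptor that links growth factor receptors to the actin cytoskeleton, and lies on chromosome 7 at 4460674 to 4480487 on the plus strand. It stood at 0.953, 3.55 and 0 in KO replicates 1 to 3, against 117, 33.0 and 46.1 in WT replicates 1 to 3. The groups did not overlap, and 5 reads in KO stood against 206 in WT. The means were 1.502 ± 1.84 in KO and 65.4 ± 45.3 in WT (SD, n = 3 each), so that the WT mean was 43.6 times the KO mean. The log2 difference was -4.79 (SE 0.75, limma adjusted p = 0.0499). Eps8l1 overlaps Gm15494 on the opposite strand, with the limit given for Hopx.

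Eps8l1, unlike Hopx, was read in KO cells of the other populations. Its mean was 53.2 in KO LT-HSC and 82.3 in WT LT-HSC, a log2 difference of -0.70 (limma unadjusted p = 0.334). In MPP3 the mean was 33.7 in KO and 80.9 in WT, a log2 difference of -1.16 (limma unadjusted p = 0.117). The KO difference of MPP2 minus the mean of these was -3.86 on the log2 scale (SE 0.90). Its unadjusted limma p was 0.000473, and it did not pass over all genes (limma adjusted p = 0.695).

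**Figure D2:**
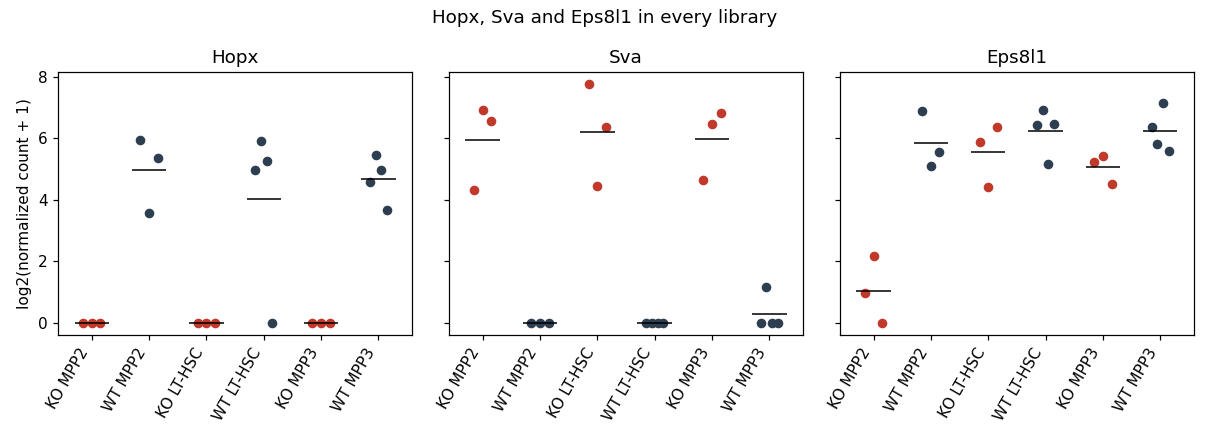
Hopx, Sva and Eps8l1 as log2(normalized count + 1) in all 20 libraries, 1 point each, with KO (red) left of WT (dark) in each population and a line at the group mean. Hopx is at 0 in all KO libraries and in WT LT-HSC replicate 4. Sva is read in all KO libraries and in 1 WT library, and Eps8l1 is near 0 in KO MPP2 alone.

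The call of Sva was kept with DESeq2 and without KO MPP2 replicate 1 or 2, and that of Eps8l1 with DESeq2 and without KO MPP2 replicate 2. In the other settings tried the limma or edgeR adjusted p of each was 0.0504 or more. Leaving out KO replicate 3, or any single WT MPP2 library, ended both calls (limma adjusted p = 0.0745 to 0.354). Either direction held within both ranges of library numbers and within each sex. Neither gene overlapped between the genotypes in MPP2, so no subset of these libraries could have shown the other direction. Sva differed by 4.33 and 6.91 on the log2 scale between the libraries numbered 101 to 106 and 115 to 120, and Eps8l1 by -5.92 and -2.90.

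Below the threshold, lower values in KO MPP2 were more numerous than higher ones. An unadjusted limma p under 0.05 was reached by 1353 genes (7.88% of those tested), of which 250 (1.46%) were higher and 1103 (6.43%) lower in KO MPP2. The libraries of KO and WT did not overlap for 1017 genes (5.93%), with KO above WT for 356 (2.07%) and below for 661 (3.85%). In LT-HSC the counts at an unadjusted limma p under 0.05 were 151 higher (0.88%) and 305 lower (1.78%) in KO, and in MPP3 they were 195 (1.14%) and 152 (0.886%). In each of LT-HSC and MPP3, Sva was the 1 gene called (0.00583%). The median log2 difference over all genes in MPP2 was -0.10, and -0.09 with TMM scaling.

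The genes that were lower in KO MPP2 were mostly genes of low to middle level. Split by mean level into 4 groups of 4290 genes, the lowest group had a median log2 difference of -0.39, with 39 higher and 212 lower in KO at an unadjusted p under 0.05. The next group had a median of -0.31, with 53 higher and 461 lower. The highest group had a median of -0.00, with 62 higher and 132 lower. Among the 1103 lower genes, 311, 106 and 481 were at 0 in KO replicates 1 to 3, against 24, 13 and 3 in WT replicates 1 to 3. The part that detection in each library has in this excess was not tested. Without KO replicate 3 the counts were 241 higher and 654 lower, without WT replicate 3 they were 280 and 689, and with both left out they were 280 and 459. Without KO replicate 2 they were 503 and 2013, and 350 genes were then called.

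**Figure D3:**
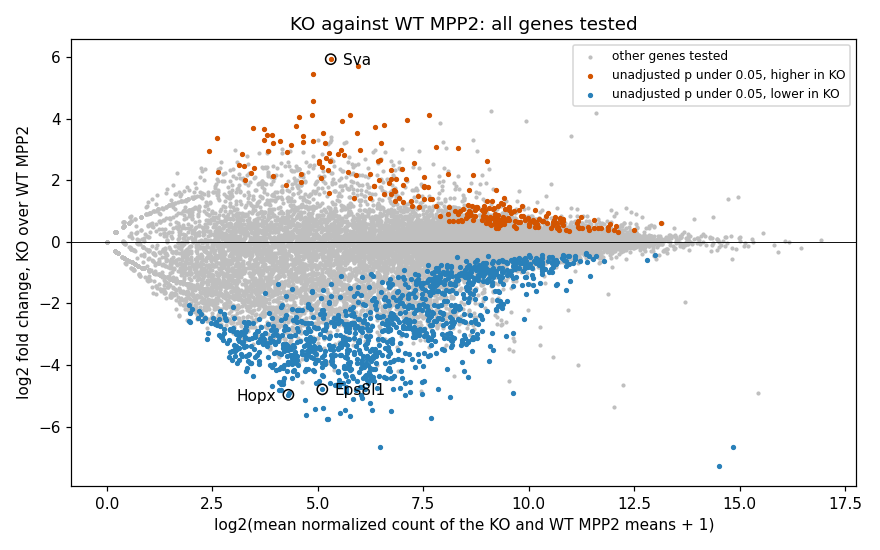
Difference between KO and WT MPP2 (log2 fold change, vertical axis) against mean level (log2 of the mean normalized count + 1, horizontal axis) for the 17160 genes tested, with the 250 higher and 1103 lower genes at an unadjusted limma p under 0.05 in orange and blue. The blue points outnumber the orange ones, and Sva and Eps8l1 are the only genes called.

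The next genes in order of p were taken as the 10 of smallest p in each direction among genes that were not called, reached 3 or more in mean log2 CPM and had KO and WT libraries that did not overlap. Their limma adjusted p ran from 0.257 to 0.430, so none of the 20 passed. By the rule that chose them, all KO libraries lay on one side of all WT libraries for each. They are given as values with no claim that they changed.

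Of the 10 higher genes, Ap3b1, a subunit of the AP-3 complex that sorts cargo to lysosomes and platelet dense granules, was 2008, 1305 and 2292 in KO and 1061, 1072 and 750.2 in WT (log2 difference 0.94, SE 0.22). Eipr1, a partner of tethering complexes of the endosome, was 1034, 1171 and 1269 in KO and 601, 704 and 646 in WT. Its spread was small, and the log2 difference was 0.83 (SE 0.21). Rhobtb3, a protein of Golgi traffic, was 548, 405 and 446 in KO and 177, 287 and 206 in WT (log2 1.08, SE 0.29). Spast, the microtubule-severing enzyme spastin, was 1051, 599 and 1409 in KO and 364, 422 and 565 in WT (log2 1.12, SE 0.30). Tbccd1, which helps place the centrosome and the Golgi, was 749.6, 611 and 1769 in KO and 522, 481 and 306 in WT (log2 1.13, SE 0.35).

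Also higher was Nsun4, a methyltransferase of mitochondrial ribosomal RNA, with 653, 450.2 and 1349 in KO and 241, 369 and 291 in WT (log2 1.31, SE 0.34). Elp2, a subunit of the Elongator complex that modifies transfer RNA, was 2871, 2238 and 4194 in KO and 1435, 1893 and 1850.0 in WT (log2 0.81, SE 0.25). KO replicate 3 was the highest library for both. Mthfd2l, a mitochondrial enzyme of folate metabolism, was 768, 730.0 and 1472 in KO and 386, 543 and 209 in WT (log2 1.41, SE 0.44). Galt, the enzyme that converts galactose-1-phosphate, was 760.1, 662 and 924 in KO and 411, 472 and 499 in WT (log2 0.75, SE 0.23). It overlaps Il11ra1, and Elp2 overlaps Slc39a6. Gm3604, a predicted gene without a role given here, was 822, 586 and 1086 in KO and 31.5, 171 and 387 in WT, the widest difference of the 10 (log2 2.64, SE 0.61). Gm3604, Ap3b1 and Rhobtb3 all lie on chromosome 13.

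Of the 10 lower genes, Kat2b, the histone acetyltransferase PCAF, was 43.8, 150.1 and 4.91 in KO and 455, 202 and 609.6 in WT (log2 difference -3.49, SE 0.78). Ranbp6, of the importin family, was 123, 336 and 35.4 in KO and 613, 528 and 901 in WT (log2 -2.53, SE 0.61). For both, KO replicate 2 was the KO library nearest to WT and KO replicate 3 the lowest. Sra1, a coactivator of steroid receptors, was 843, 1622 and 873 in KO and 1709, 1641 and 2396 in WT (log2 -0.83, SE 0.21). KO replicate 2 came close to the lowest WT library in Sra1.

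Also lower was Ifitm1, an interferon-induced membrane protein, with 545, 997 and 1281 in KO and 2008, 1907 and 4584 in WT (log2 -1.55, SE 0.38). Sike1, which restrains the kinases that switch on interferon genes, was 258, 312 and 183 in KO and 552, 440.3 and 774 in WT (log2 -1.22, SE 0.29). WT replicate 3 was the highest library for both. Cep97, a centriole protein that holds back cilium formation, was 149, 448 and 74.7 in KO and 629, 554 and 675 in WT (log2 -1.85, SE 0.45). Ccdc66, a protein of microtubules and cilia, was 96.2, 267 and 51.1 in KO and 273, 404 and 386 in WT (log2 -1.66, SE 0.43), and it overlaps Fam208a. KO replicate 2 was the KO library nearest to WT for this pair. Gnpat, which starts the synthesis of ether lipids in peroxisomes, was 1003, 1168 and 1152 in KO and 1635, 1499 and 2012 in WT. It had the narrowest difference of the 20 genes and overlaps 2810004N23Rik (log2 -0.62, SE 0.15). Thumpd2, an RNA methyltransferase, was 82.9, 396 and 9.82 in KO and 766, 484 and 682 in WT (log2 -3.15, SE 0.77). Fam49a, a regulator of the small GTPase Rac, was 110.5, 192 and 16.7 in KO and 611, 219 and 646 in WT (log2 -2.61, SE 0.68). KO replicate 2 was nearest to WT for both.

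Across these 20 genes KO replicate 3 was the KO library farthest from WT in 16 and KO replicate 2 the nearest in 18. All 20 kept their sign between the libraries numbered 101 to 106, between those numbered 115 to 120, between female libraries and between male libraries. The rule that chose the genes fixed this, since groups that do not overlap keep their sign in any subset of libraries. All 20 kept an unadjusted limma p under 0.05 without KO replicate 3 and, in a separate fit, without WT replicate 3. With both left out, 18 kept it. These p-values come from the values that chose the genes.

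In the other populations the same genes had differences nearer to 0. Of the 20, 13 had the same sign in LT-HSC and 10 in MPP3. At an unadjusted limma p under 0.05, 0 of 20 differed in LT-HSC and 1 in MPP3, where Spast was lower in KO (log2 difference -0.73, SE 0.28). In Ap3b1 the KO difference was 0.94 in MPP2, 0.00 in LT-HSC and 0.01 in MPP3. In Thumpd2 it was -3.15 in MPP2, -0.09 in LT-HSC and 0.12 in MPP3. The genes were picked on their MPP2 values, so a smaller difference elsewhere is partly fixed by that choice.

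**Figure D4:**
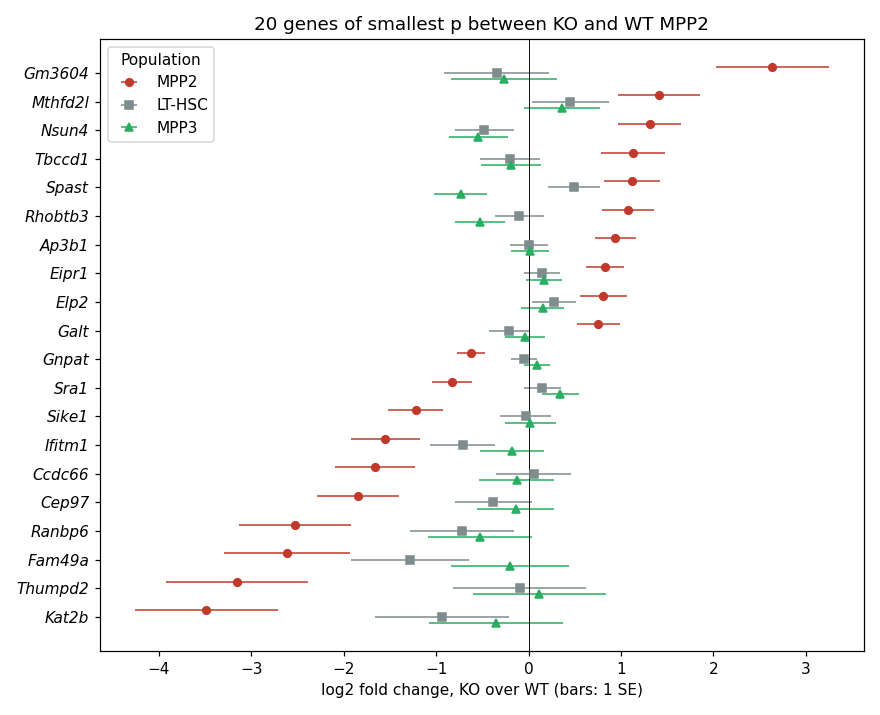
Log2 fold change of KO over WT with 1 SE for the 20 genes of smallest p in MPP2 (red circles), beside the same genes in LT-HSC (grey squares) and MPP3 (green triangles). The MPP2 values were used to choose the genes and run from -3.49 (Kat2b) to 2.64 (Gm3604), while those of the other populations lie nearer to 0.

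The difference was tested over all genes as the KO difference in MPP2 minus the mean KO difference in LT-HSC and MPP3. No gene passed (limma, 0 of 17160), and at an unadjusted limma p under 0.05 there were 826 genes (4.81%), 189 with a positive difference (1.1%) and 637 with a negative one (3.71%). DESeq2 called 40 genes for the same contrast, and edgeR on 20 or on 18 libraries called 0. Genes of smallest p included Nsun4 (1.82, SE 0.41) and Rhobtb3 (1.39, SE 0.34) with positive differences, and Sra1 (-1.08, SE 0.26) with a negative one. Proser1, which encodes a proline and serine rich protein, was 133, 234 and 138 in KO MPP2 and 366, 414 and 340.2 in WT MPP2, below WT in each library. Its KO difference was -1.19 in MPP2, 0.47 in LT-HSC and 0.36 in MPP3 on the log2 scale. The difference of these was -1.61 (SE 0.40, limma adjusted p = 0.695).

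Lists of genes by lineage and process were read as counts, beside the counts over all genes. The 38 lists held 634 genes that were tested, and 0 of their members were called. At an unadjusted limma p under 0.05, 10 of the 634 (1.58%) were higher and 33 (5.21%) lower in KO MPP2, close to the 1.46% and 6.43% over all genes. The median of the list lay below 0 in 27 of the 38 lists, against a median of -0.10 over all genes.

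Of the megakaryocyte and platelet list, 19 of 23 tested members had a positive log2 difference, beside 7026 of all 17160 genes. The median of the list was 0.57 in MPP2, 0.37 in LT-HSC and 0.14 in MPP3. In MPP2 it was -0.03 without WT replicate 3, 1.20 without KO replicate 3 and 0.53 without either. In this list 1 member was higher in KO MPP2 at an unadjusted p under 0.05. The member was Selp, the P-selectin of platelet granules, with 752, 309 and 655 in KO and 191, 84.1 and 293 in WT. All KO libraries lay above all WT libraries in Selp (log2 1.67, SE 0.60, limma adjusted p = 0.519). Vwf, the von Willebrand factor, was 3664, 1327 and 469.6 in KO and 1629, 992 and 62.6 in WT, with overlap. Itga2b, the platelet integrin alpha-IIb, was 9476, 7074 and 4055 in KO and 9695, 4639 and 934 in WT. In Vwf and Itga2b replicate 3 was the lowest library within each genotype. Gata1, the transcription factor of red cells and megakaryocytes, was 3215, 4259 and 3821 in KO and 3708, 4545 and 877 in WT. Of the 21 erythroid genes tested, 0 reached an unadjusted p under 0.05, and the median was 0.18, or -0.17 without WT replicate 3 and -0.15 without replicate 3 of either genotype.

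With all libraries the medians of the myeloid lists lay below 0. The granulocyte and monocyte precursor list had a median of -1.38 over 23 tested members with 1 member lower at an unadjusted p under 0.05, and its median was -0.35 without WT replicate 3 and 0.03 without replicate 3 of either genotype. The monocyte and macrophage list had a median of -1.15 over 15 tested members, and -0.14 without replicate 3 of either genotype. The dendritic cell list had a median of -0.61 over 12, and 0.98 without replicate 3 of either genotype. Mpo, the granule peroxidase, was 1136, 15747 and 91.4 in KO and 22559, 105 and 41133 in WT. Elane, neutrophil elastase, was 0, 3961 and 0 in KO and 6105, 2.00 and 14769 in WT. In both genes the libraries of one genotype varied widely, with KO replicate 2 and WT replicates 1 and 3 high. Csf3r, the receptor for granulocyte colony-stimulating factor, was 1.91, 159 and 132 in KO and 468, 119 and 828 in WT.

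The 16 mature neutrophil genes had a median of -2.03, with 2 members lower at an unadjusted p under 0.05. The median was 0.00 without WT replicate 2, the library with the highest sum of these markers, and -2.99 without replicate 3 of either genotype. Cxcr2, a chemokine receptor of neutrophils, had 0 reads in all KO libraries and 11.4, 107 and 30.7 in WT. Ngp, a granule protein, had 0 in all KO libraries and 58.6, 64.0 and 30.7 in WT. For both, every WT library lay above KO, at low levels. Prg2, an eosinophil granule protein, had 0 in all KO libraries and 27.1, 6.00 and 426 in WT (limma adjusted p = 0.257). The basophil protease Mcpt8 was 0, 5.33 and 0 in KO and 26.2, 3.00 and 69.7 in WT. The mast cell, basophil and eosinophil list had a median of -0.99 over 14 tested members, and from -1.73 to -0.74 with any 1 MPP2 library left out.

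Lymphoid lists rested on WT replicate 3. The B cell and plasma cell list had a median of -2.89 over 12 tested members, and -0.44 without WT replicate 3 or 0.00 without replicate 3 of either genotype. The early lymphoid list had a median of -0.97 over 17, with 3 members lower at an unadjusted p under 0.05, and 0.00 without it, with 2 higher and 0 lower. Dntt, the enzyme that adds bases at antigen receptor joints, was 0, 79.0 and 0 in KO and 0, 11.01 and 7258 in WT. Thy1, a marker of T cells, was 0, 4.44 and 0 in KO and 60.3, 6.00 and 40.2 in WT, below WT in every library. It stood at -3.89 on the log2 scale (SE 1.18, limma adjusted p = 0.41).

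Stem cell markers showed 0 genes higher and 1 lower at an unadjusted p under 0.05 among 22, with a median of -0.12. Without WT replicate 3 the median was 0.18 with 0 higher and 0 lower, and without replicate 3 of either genotype it was 0.30 with 0 and 0. The lower gene was Fgd5, a guanine exchange factor used to mark stem cells, with 0 in all KO libraries and 47.2, 0 and 86.2 in WT. Procr, the protein C receptor of stem cells, was 0, 9.77 and 0 in KO and 0, 0 and 182 in WT, so that only KO replicate 2 and WT replicate 3 had reads. Cd34, a surface protein of progenitors, was 2447, 2870 and 1228 in KO and 4071, 918 and 12660 in WT.

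**Figure D5:**
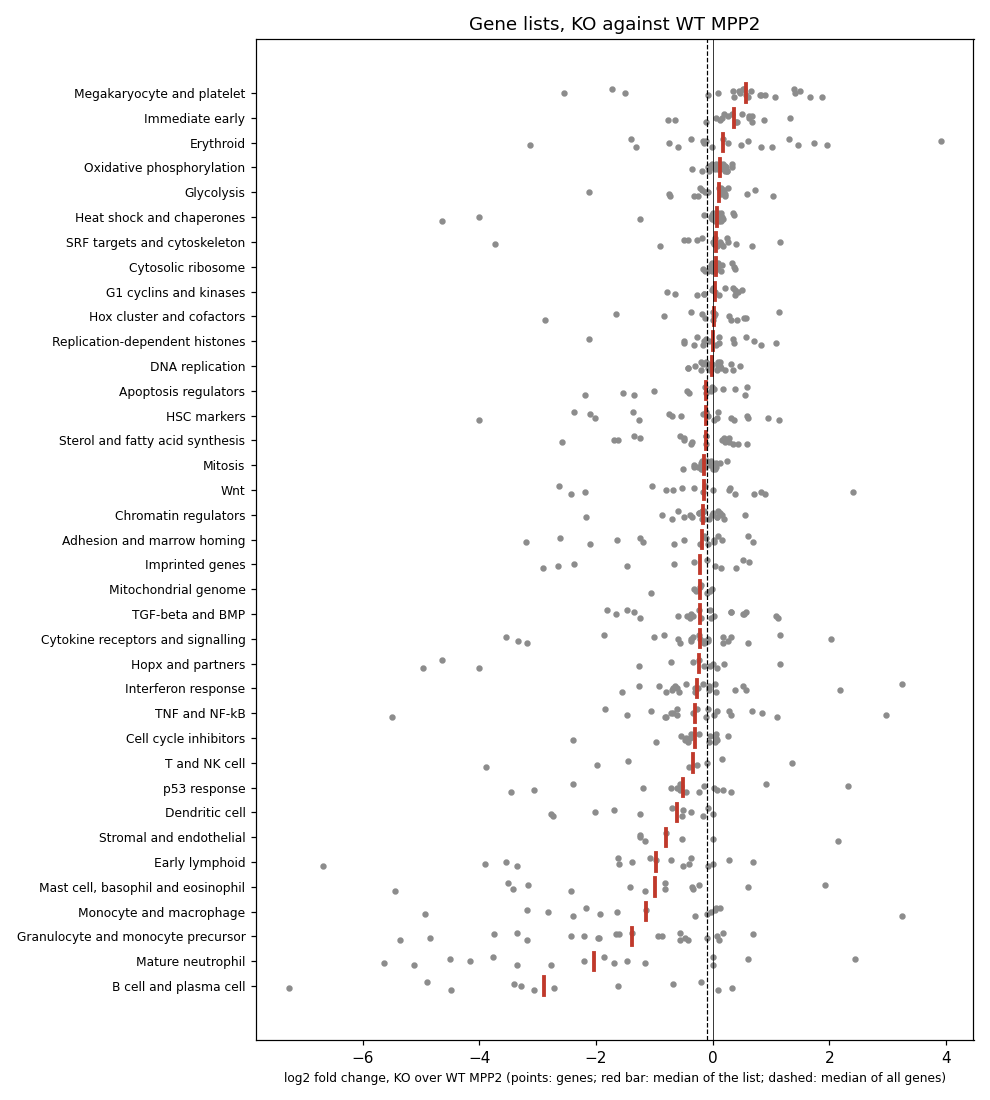
Log2 fold change of KO over WT MPP2 for each tested member (grey points) of 37 gene lists, with the median of the list (red bar) and the median of all genes tested (dashed line, -0.10); the sex chromosome list is not drawn. Lists run from the B cell and plasma cell list (-2.89) at the bottom to the megakaryocyte and platelet list (0.57) at the top. The lists of DNA replication, mitosis, the cytosolic ribosome and oxidative phosphorylation lie close to 0.

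Most lists of cell division and of the housekeeping machinery had median differences near 0. Of 24 genes of DNA replication and 22 of mitosis, 0 reached an unadjusted p under 0.05 in either direction (limma), with medians of -0.02 and -0.14. Mki67, a gene of dividing cells, was 2818, 3790 and 3724 in KO and 3813, 4384 and 3490 in WT, with overlap (log2 -0.18, SE 0.30). Ccnd2, a cyclin that drives entry into the cycle, was 5715, 6701 and 7186 in KO and 5568, 4623 and 4795 in WT. All KO libraries lay above WT in Ccnd2 (log2 0.39, SE 0.14, limma adjusted p = 0.544). The 16 inhibitors of the cycle had a median of -0.31, below the -0.10 of all genes, with 0 past the same unadjusted level. The 23 genes of the cytosolic ribosome had a median of 0.05 and the 25 genes of oxidative phosphorylation one of 0.12, with 0 past it in each. Of the 8 genes of the mitochondrial genome tested, 8 had a negative difference, with 0 past that level. Their median was -0.22, or 0.33 without WT replicate 3. Of the 21 glycolytic genes, 1 was higher and 1 lower at that level, both kinases that restrain pyruvate dehydrogenase, with a median of 0.11, or -0.11 without WT replicate 3. Pdk1 was 935, 986 and 1349 in KO and 236, 487 and 1266 in WT, with overlap (log2 1.03, SE 0.44). Pdk2 was 130.5, 117 and 189 in KO and 320.0, 213 and 204 in WT (log2 -0.75, SE 0.34).

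The partners and targets through which Hopx is known to act showed mixed values. Of 18 SRF targets and cytoskeletal genes, 2 were higher and 1 lower at an unadjusted p under 0.05, with a median of 0.06. Srf itself was 700.1, 269 and 669 in KO and 427, 211 and 125 in WT, with overlap (log2 1.16, SE 0.53, limma adjusted p = 0.623). Tpm1, a tropomyosin of the actin filament, was 1951, 2129 and 2380 in KO and 1792, 1440.0 and 960.4 in WT, with all KO libraries above WT (log2 0.66, SE 0.23, limma adjusted p = 0.485). Cnn3, the actin-binding calponin 3, was 65.7, 103 and 0 in KO and 90.0, 273 and 643 in WT, with overlap. Without WT replicate 3, 0 members of this list reached that level in either direction, and the median was -0.11. The 18 immediate early genes had a median of 0.37, with 0 at that level, and -0.27 without WT replicate 3 or 0.078 without replicate 3 of either genotype. Epc1, a component of a histone acetyltransferase complex and a Hopx partner in muscle, was 378, 232 and 47.2 in KO and 339, 321 and 530.4 in WT, with KO replicate 3 far below the rest.

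Of 22 TNF and NF-kB genes, KO libraries lay above WT for 1 and below for 2, against 2.07% and 3.85% of all genes, and the median was -0.30, or 0.0079 without KO replicate 1. Ccl3, a chemokine that attracts leukocytes, was 0, 48.0 and 0 in KO and 68.2, 235 and 278 in WT (log2 -5.50, SE 1.31, limma adjusted p = 0.257). Nfkbiz, a nuclear regulator of NF-kB, was 49.5, 47.1 and 20.6 in KO and 133, 65.0 and 126 in WT (log2 -1.47, SE 0.53). Every KO library was below every WT library for both. Nfkb1, a subunit of NF-kB, was 2060, 2175 and 1915 in KO and 1664, 1607 and 1820.4 in WT, with all KO libraries above WT (limma unadjusted p = 0.155). Rsad2, the interferon-induced antiviral protein viperin, was 438, 614 and 864 in KO and 68.2, 88.1 and 403 in WT, with all KO libraries above WT (log2 2.18, SE 0.75, limma adjusted p = 0.485). Irf9, a subunit of the interferon-activated factor, was 807, 889.8 and 979 in KO and 1384, 1002 and 1802 in WT (log2 -0.61, SE 0.28). The 24 interferon genes thus showed 1 higher and 2 lower at an unadjusted p under 0.05, the lower ones being Ifitm1 and Irf9, with a median of -0.27. The median was 0.075 without WT replicate 3 and 0.031 without KO replicate 3. Without either it was 0.36, with 3 higher and 1 lower.

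Of 24 cytokine receptors and signalling genes, 1 was higher and 3 were lower at that level. Il6ra, a chain of the interleukin-6 receptor, was 221, 97.7 and 221 in KO and 17.5, 42.0 and 89.8 in WT, above WT in every library (log2 2.02, SE 0.77, limma adjusted p = 0.547). Csf2rb2, a beta chain of the interleukin-3 receptor, was 5.71, 3.55 and 0 in KO and 42.0, 38.0 and 17.7 in WT (log2 -3.33, SE 1.23, limma adjusted p = 0.53). It is a near copy of Csf2rb. Reads without a unique alignment were not counted in genes, so both may be undercounted. Outside the list of cytokine receptors, Selplg, the ligand of P-selectin, was 1640.2, 2347 and 2106 in KO and 2977, 2465 and 4426 in WT. It was below WT in every library (log2 -0.67, SE 0.23).

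Among 24 chromatin regulators, 0 were higher and 2 lower at an unadjusted p under 0.05, beside 1.46% and 6.43% of all genes, and without replicate 3 of either genotype 1 was higher and 0 lower. Rnf2, a Polycomb ubiquitin ligase for histone H2A, was 1050, 1268 and 1074 in KO and 1666, 1435 and 2546 in WT (log2 -0.70, SE 0.22, limma adjusted p = 0.43). Cbx2, also a Polycomb protein, was 86.7, 48.8 and 2.95 in KO and 148, 106 and 98.1 in WT (log2 -2.17, SE 0.85). Neither overlapped between genotypes. Of 18 p53 response genes, 2 were lower at that level: Zmat3, a p53-induced RNA-binding protein, with 10.5, 5.33 and 0 in KO and 30.6, 35.03 and 36.6 in WT, and Phlda3, with 0, 24.0 and 0 in KO and 108, 28.02 and 9.45 in WT, which overlapped.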

How the data were processed

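Per the submitters' processing notes, reads were aligned with TopHat2 2.1.1 to GRCm38, counted per gene with HTSeq 0.11.2 and scaled with DESeq (no version given). The values as deposited by the authors are a normalized signal: read counts over a size factor set for each library, and all were whole multiples of 1 read within 1e-06. The 5 summary entries were left out. Of 45706 gene identifiers, 45143 matched a GENCODE M21 symbol. The main test was limma 3.58.1 (R 4.3.3) on log2(deposited value + 1), with robust variances that follow the mean level, fitted to 6 group means over 20 libraries with 14 residual degrees of freedom, for the 17160 genes that edgeR's filterByExpr retained, with Benjamini-Hochberg adjustment at 0.05. The added 1 understates fold changes of genes with few reads. edgeR 4.0.16 and DESeq2 1.42.0 were run on the recovered reads as alternatives. The edgeR fit on 18 libraries left out WT MPP2 replicate 2 and WT MPP3 replicate 1. Their value of 1 read was close to 1 (1.00071 and 1.00868), where the check of whole reads says little. The tests were tested on simulated data with the same spread for all genes and libraries. The simulation did not copy the uneven detection of these libraries, so it does not vouch for the calls made here. Replicate numbers follow accession order. The genes named were Hopx, the called genes, the 10 of smallest p in each direction, 5 in each direction for the difference from other populations, up to 4 members of smallest p per list, and 15 lineage and sorting genes. The comparison, gene lists and rules were chosen with earlier results of these data known.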

Additional observations from a re-analysis of the deposited data

Results flagged for a closer look

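In the groups with 4 libraries, 1 value was flagged as apart from the rest of its group. Sva had 1 read (a normalized count of 1.26) in WT MPP3 replicate 2 and 0 in the other 3 WT MPP3 libraries, so that the gap to the nearest library took up all of the group's range (a ratio of 1). Sva was 0 in all 3 WT MPP2 libraries and in all 4 WT LT-HSC libraries. A read beside libraries that are all at 0 always gives that ratio. The rate of about 1 in 20 groups set apart by chance therefore does not apply to it. Dntt had the same pattern in WT LT-HSC, with 23.3 in replicate 3 and 0 in the other libraries. Groups of 3 libraries, such as KO and WT MPP2, were not examined in this way.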

How the results depend on the processing

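The 2 genes called between KO and WT MPP2 became 112 (20 higher and 92 lower) with DESeq2. Of the 112, 65 had groups that did not overlap, beside 5.93% of all genes tested, and 23 had nearly all WT reads in 1 library. The 2 calls became 0 with TMM scaling, edgeR on 20 or on 18 libraries, voom weights, or the library-number range or sex as a covariate. They also became 0 with no expression filter, only the 6 MPP2 libraries, or a pseudocount of 4 or of 16. Leaving out KO and WT MPP2 replicate 3 together, a setting chosen after seeing the data, gave 0 as well. Beside those counts of 0, the genes at an unadjusted p under 0.05 numbered 62 to 505 higher and 222 to 1292 lower. Leaving out 1 library gave 0 to 350 called genes, the 350 (16 higher and 334 lower) without KO MPP2 replicate 2. The cause was not tested. For the difference from LT-HSC and MPP3, the count of 0 became 40 with DESeq2 and ran from 0 to 136 with 1 library left out, the 136 without KO MPP2 replicate 2. Hopx passed with DESeq2 (-7.76, DESeq2 adjusted p = 0.0206). Slamf1 changed sign with sex as a covariate (-0.012), and Cd48 and Flt3 with the library-number covariate (0.11 and 0.29). With KO and WT MPP2 replicate 3 both left out the log2 difference was 0.24 in Cd48, 1.53 in Flt3, 0.52 in Ly6a, 0.45 in Cd34, 1.71 in Procr, -0.15 in Gata1, 1.45 in Mpo and 1.37 in Dntt, each of the other sign. With 1 library left out it ran from -0.58 to 0.51 in Cd48, -1.36 to 1.34 in Flt3, -2.22 to 0.46 in Ly6a, -1.81 to 0.085 in Cd34, -2.62 to 1.14 in Procr, -0.025 to 2.38 in Pf4, -0.050 to 1.64 in Itga2b, -0.13 to 1.05 in Gata1 and -6.10 to 0.31 in Dntt, with the other sign without WT replicate 3 and, in Cd48, also without KO replicate 1. None of these passed the test in any of these fits. No paired analysis was possible because replicate numbers follow accession order only and each replicate 3 has no library of the other genotype in its number range; the range as a covariate is given above instead. Hopx rests on 115 WT reads, and at this depth the fold has only a lower bound.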

Other observations

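Some genes were read in all libraries of one genotype and in none of the other. With at least 10 reads in each WT MPP2 library and 0 reads in each KO MPP2 library there were 16 genes, Hopx among them, and Sva was the only gene the other way round. These genes were singled out after their values were seen, and only Sva passed the limma test. Over all genes tested, 15.8% and 21.9% were at 0 in KO replicates 1 and 3, against 6.60% to 13.0% in the WT libraries. The part that detection has in the uneven split was not tested. Apart from Hopx, all of the 16 genes had reads in KO libraries of LT-HSC or MPP3, such as Chrnb1 with 176 in KO LT-HSC replicate 1. Besides the neutrophil genes Cxcr2 and Ngp they included Epha4, a receptor of ephrins, with 0 in KO and 19.2, 21.0 and 13.0 normalized counts in WT replicates 1 to 3. Trem3, a receptor of the TREM family of myeloid cells, had 0 in KO and 42.8, 10.01 and 269 in WT. Wfs1, a membrane protein of the endoplasmic reticulum, had 0 in KO and 60.3, 12.01 and 26.0 in WT. Pde9a, an enzyme that breaks down cyclic GMP, had 0 in KO and 47.2, 23.0 and 14.2 in WT. Grap, an adaptor of receptor signalling, had 0 in KO and 52.5, 13.0 and 29.5 in WT. WT replicate 2 was the lowest WT library in Trem3, Wfs1 and Grap, and WT replicate 3 in Epha4 and Pde9a.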
